A study of Mus musculus with 6 samples.

Results

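The genes described here are 10 components of bone morphogenetic protein (BMP) and activin signalling, measured by RNA-seq in cultures of mouse spermatogonial stem cells, which renew themselves and give rise to sperm. They are the ligand Bmp4, the type I receptors Bmpr1a and Bmpr1b, the type II receptors Bmpr2, Acvr2a and Acvr2b, the target genes Id1, Id2 and Id3, and the inhibitor Smad7. They were taken by symbol from a table of 24495 genes, and all 10 were present and had enough counts to be tested. Cells of both groups came from DBA2 testes at postnatal days 5 to 8. One group of 3 libraries received 2 uM EPZ5676 (pinometostat), an inhibitor of the histone methyltransferase DOT1L, for 2 weeks, and 3 control libraries received 0.2% ethanol for the same time. The series calls the libraries biological triplicates, and nothing in the labels says whether the cultures were derived separately, so p-values measure the spread between these libraries.

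BMP ligands bind a complex of type I and type II receptors, and the type I receptor then phosphorylates the BMP-regulated SMAD proteins, which enter the nucleus with Smad4. Activins use the type II receptors Acvr2a and Acvr2b with other type I receptors and signal through Smad2 and Smad3. The Id genes, which encode helix-loop-helix proteins that bind E-proteins and keep them off DNA, are among the best known direct targets of BMP signalling. Smad7 is itself induced by the pathway and blocks the type I receptors. In the testis, BMP4 is known as a signal for spermatogonial differentiation, while the related gene Id4 marks stem cells.

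Upstream sequence was found in RefSeq (GRCm38.p6) for 8 of the 10 genes. It is shown for Id2 and Id3, the target genes among the 8, so that the elements SMAD proteins are known to bind can be seen in them. Each run is the 250 bases before the gene start, 5′ to 3′ on the gene's strand, with capitals marking GGCGCC, a GC-rich element of BMP-regulated SMADs that reads the same on both strands, and the SMAD box GTCT or its reverse complement AGAC. The elements do not overlap in these runs. Id2 lies on the minus strand at chr12:25096093-25096342, and Id3 on the plus strand at chr4:136143572-136143821.

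Id2: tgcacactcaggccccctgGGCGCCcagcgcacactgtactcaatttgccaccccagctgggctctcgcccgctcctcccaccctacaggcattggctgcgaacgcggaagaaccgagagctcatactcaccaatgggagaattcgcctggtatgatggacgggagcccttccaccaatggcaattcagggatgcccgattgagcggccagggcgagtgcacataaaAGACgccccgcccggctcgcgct
Id3: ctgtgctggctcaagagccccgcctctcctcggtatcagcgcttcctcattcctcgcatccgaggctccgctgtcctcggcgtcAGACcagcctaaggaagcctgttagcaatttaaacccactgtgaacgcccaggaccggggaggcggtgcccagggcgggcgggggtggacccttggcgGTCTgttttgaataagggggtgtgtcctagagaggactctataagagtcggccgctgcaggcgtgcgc

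The Id2 run held 1 GGCGCC, starting 231 bases before the gene start, and 1 SMAD box. The Id3 run held 2 SMAD boxes and no GGCGCC. Of 32851 RefSeq windows of this length, 9.59% held GGCGCC and 82.9% held GTCT on either strand, so a SMAD box is an ordinary feature. A match is a description of the letters and not a measured site.

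Library totals ran from 17784332 to 21046473 counts with ethanol and from 19866337 to 54645903 with EPZ5676, where replicate 2 was the deepest. Levels are given as TMM-normalised CPM, the count of a gene scaled to library size. The germ cell label held: all 16 germ and spermatogonial markers were tested. Their summed level, with most from Dazl, Uchl1 and Ddx4, was 5157 to 5439 CPM with EPZ5676 and 4979 to 5713 CPM with ethanol. Single markers were less even. Gfra1 was at 53.2, 59.3 and 44.0 CPM with EPZ5676 and 73.0, 68.8 and 66.5 CPM with ethanol. The groups did not overlap for Gfra1 and Cdh1, lower with EPZ5676, or for Etv5, higher with it. Of all tested genes, 14.9% had no overlap. Nanos2 was at 5.91 and 3.19 CPM in the replicate 2 libraries and at 12.7 to 14.6 CPM in the others. Fibroblast markers were also present. Their 19 genes summed to 1478 to 1946 CPM with EPZ5676 and 1457 to 2524 CPM with ethanol, and none was at 0. The replicate 2 library had the highest sum of its group in both. Fn1 gave the most to the sum, at 558 to 888 CPM. Of these 19 markers, 15 had a negative log2 fold change with EPZ5676, with a median of -0.21, and of the 16 germ markers 10 did, with a median of -0.11. Of 7 Leydig markers, 6 were below 1 CPM in every library, and of these Lhcgr was at 0. The other, Star, was at 5.63, 5.03 and 6.24 CPM with EPZ5676 and 7.58, 9.63 and 6.93 CPM with ethanol. The 10 Sertoli markers summed to 802 to 905 CPM, mostly from Tjp1 and Ctsl, and 4 others (Cldn11, Fshr, Dhh and Cst12) were below 1 CPM in every library. Between these, Wt1 was at 17.5 to 35.6 CPM, Sox9 at 3.75 to 6.05, Clu at 2.90 to 6.08 and Gata4 at 1.47 to 1.96. The 6 peritubular and smooth muscle markers summed to 57.7, 94.4 and 73.7 CPM in EPZ5676 replicates 1, 2 and 3. With ethanol they summed to 62.5, 145 and 58.5 CPM in that order. The 8 macrophage markers summed to 12.4 to 16.6 CPM and the 6 endothelial markers to 17.6 to 21.6 CPM.

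**Figure D1:**
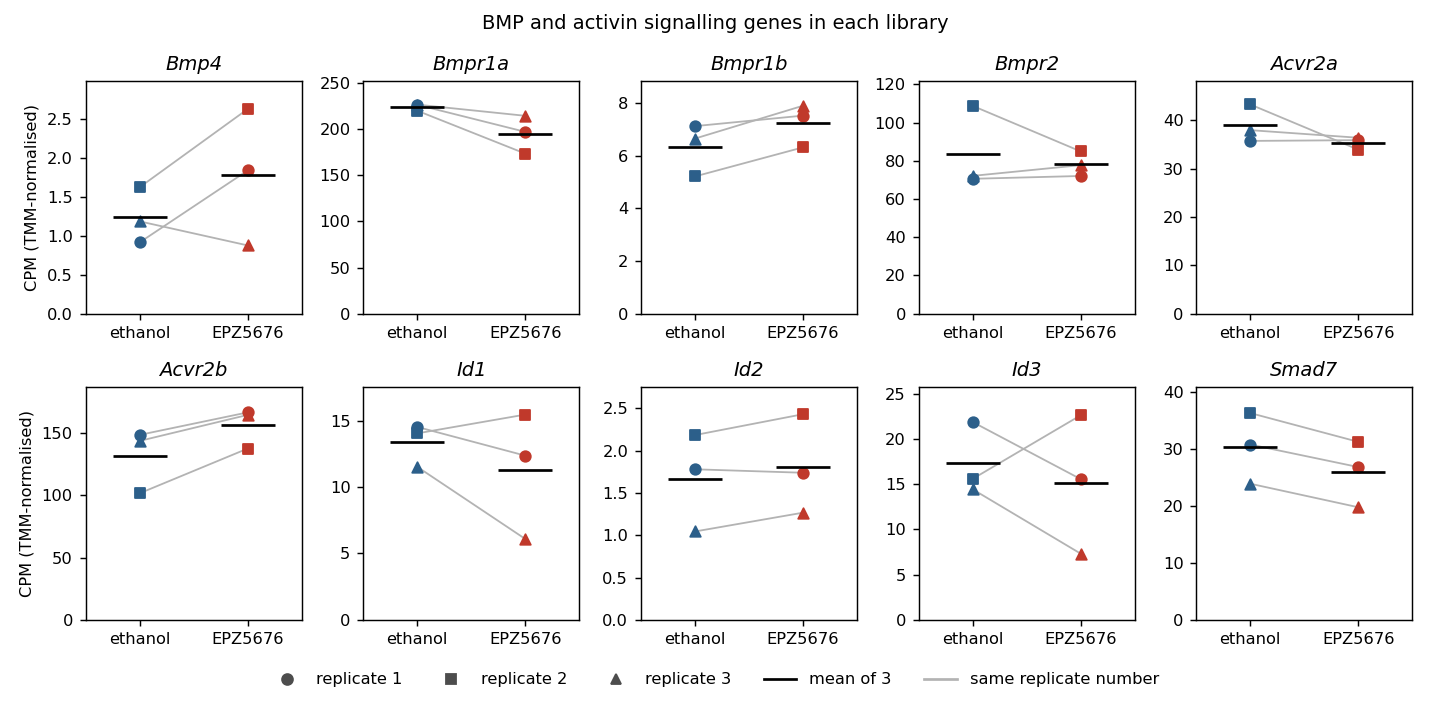
TMM-normalised CPM (y axis, linear, from 0) of each of the 10 genes in the ethanol (blue) and EPZ5676 (red) libraries. Marker shape gives the replicate number, grey lines join libraries that share it, and black bars are means of 3. The groups were separate for Bmpr1a and overlapped for the other 9 genes.

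None of the 10 genes passed in the comparison of EPZ5676 with ethanol. Their adjusted p in the quasi-likelihood test of edgeR, with Benjamini-Hochberg adjustment over all 14855 genes tested, ran from 0.670 to 0.936, and the background share of called genes was 0%. DESeq2 and limma-voom also called 0 of the 10, against backgrounds of 0.337% and 0%. At an unadjusted p under 0.05 there was 1 of the 10, Bmpr1a, against a background of 7.41%. When the replicate number entered the fit as a block, again 0 of the 10 passed, against a background of 0.653%. The smallest adjusted p in that blocked fit were 0.107 for Acvr2b, 0.148 for Bmpr1a and 0.193 for Smad7. These were the 3 of 10 with an unadjusted p under 0.05 there, against a background of 18.5%. The median log2 fold change of the 10 genes was -0.12, with 6 negative and 4 positive, and that of all genes tested was -0.00663. The fibroblast and germ markers had medians of -0.21 and -0.11, and their part in the median of the 10 genes was not tested. The log2 fold changes of the 10 genes ran from -0.23 to 0.57. Of all tested genes, 3.94% had one at least as large in size as the highest of these.

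**Figure D2:**
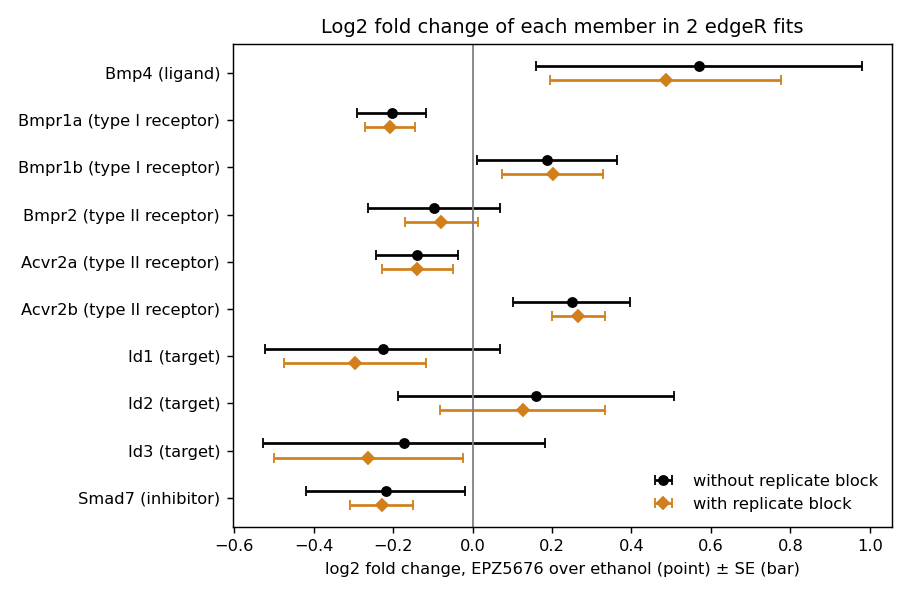
Log2 fold change of EPZ5676 over ethanol (x axis) for each gene, with its role in brackets; points are edgeR estimates and bars are ± 1 SE. Black circles are from the fit without the replicate block and orange diamonds from the fit with it. Both fits give each gene the same sign, and the SE of Acvr2b falls from 0.147 to 0.0663 with the block.

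Bmp4, the ligand, was the gene with the largest fold change of the 10 and one of the lowest levels per length. Its counts in replicates 1, 2 and 3 were 36, 145 and 18 for EPZ5676 and 18, 29 and 25 for ethanol. In CPM these were 1.84, 2.63 and 0.877 with EPZ5676 against 0.915, 1.62 and 1.19 with ethanol. EPZ5676 replicates 1 and 2 were the highest of the 6 libraries, while EPZ5676 replicate 3 was the lowest, so the groups overlapped. Means were 1.78 ± 0.878 and 1.24 ± 0.358 CPM (SD, n = 3). The log2 fold change was 0.57 ± 0.41 (SE), with a 95% interval from -0.37 to 1.51, so at these counts neither a rise of over 2-fold nor a fall was outside the interval. Without EPZ5676 replicate 2 the log2 fold change was 0.13, and without EPZ5676 replicate 3 it was 0.87. An antisense transcript, Gm15217, overlaps Bmp4 in the GENCODE M21 annotation, and the use of strand in the counting is not stated, so reads of the pair may not be separated.

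Bmpr1a, the type I receptor through which BMP4 signals in many tissues, was the gene whose groups did not overlap. It was at 197, 173 and 214 CPM in EPZ5676 replicates 1, 2 and 3 and at 226, 219.9 and 226 CPM in ethanol replicates 1, 2 and 3. All EPZ5676 libraries lay below all ethanol libraries, though EPZ5676 replicate 3 came close to ethanol replicate 2. Of all tested genes, 14.9% had groups that did not overlap, so 1 of 10 is near the background. Means were 195 ± 20.6 and 224 ± 3.76 CPM (SD, n = 3), a level 1.15-fold higher with ethanol. The log2 fold change was -0.20 ± 0.09 (SE) and the quasi-likelihood test (edgeR) gave an unadjusted p of 0.0463 and an adjusted p of 0.670. Its 95% interval ran from -0.40 to -0.00426. Without EPZ5676 replicate 2 the value was -0.12. A predicted antisense gene, Gm17110, overlaps Bmpr1a in the same annotation.

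Bmpr1b, the second type I receptor for BMPs, was far less abundant than Bmpr1a per kilobase and differed in the other direction. It was at 7.52, 6.31 and 7.89 CPM in EPZ5676 replicates 1, 2 and 3 and at 7.12, 5.21 and 6.65 CPM in the ethanol libraries. In both groups replicate 2 was the lowest, and the groups overlapped. The log2 fold change was 0.19 ± 0.18 (SE), with a 95% interval from -0.22 to 0.59, and it ran from 0.061 without ethanol replicate 2 to 0.28 without EPZ5676 replicate 2 or ethanol replicate 1. Within same-numbered libraries the log2 difference was positive in all 3, at 0.08, 0.28 and 0.25.

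Of the type II receptors, Bmpr2, best known as a BMP receptor, did not separate the groups. It was at 72.1, 84.9 and 77.7 CPM in EPZ5676 replicates 1, 2 and 3 and at 70.6, 109 and 72.1 CPM in the ethanol libraries. Ethanol replicate 2 stood above the other 5 libraries, and it decided the sign. The log2 fold change was -0.10 ± 0.17 (SE) with all libraries and 0.13 without ethanol replicate 2. That library also had the highest fibroblast sum, 2524 CPM, and the highest peritubular and smooth muscle sum, 145 CPM. The part of those cells in the Bmpr2 level was not tested.

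Acvr2a and Acvr2b, which bind activins and also serve BMPs, differed in opposite directions. Acvr2a was at 35.9, 33.9 and 36.4 CPM with EPZ5676 and at 35.7, 43.3 and 38.0 CPM with ethanol, replicates 1 to 3 in each case. The Acvr2a libraries lay close together except ethanol replicate 2, and the log2 fold change was -0.14 ± 0.10 (SE), with a 95% interval from -0.38 to 0.10. Acvr2a shares exonic sequence with Orc4 on the opposite strand. Its sign was negative under all 18 alternatives run, but the value was -0.0635 without ethanol replicate 2 and -0.0278 in the blocked fit without replicate 2.

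Acvr2b was at 167, 137 and 165 CPM in EPZ5676 replicates 1, 2 and 3 and at 148, 102 and 144 CPM in ethanol replicates 1, 2 and 3. EPZ5676 replicates 1 and 3 lay above all ethanol libraries, and EPZ5676 replicate 2 lay below ethanol replicates 1 and 3. Replicate 2 was the lowest library of both groups. Means were 156 ± 16.2 and 131 ± 25.8 CPM (SD, n = 3), 1.19-fold higher with EPZ5676. Its log2 fold change was 0.25 ± 0.15 (SE), with an adjusted p of 0.743 and a 95% interval from -0.09 to 0.59. Compared within replicate numbers the difference was positive in all 3, at 0.17, 0.44 and 0.20, and the blocked edgeR fit gave 0.27 ± 0.07 with an adjusted p of 0.107. Without ethanol replicate 2 the unblocked value was 0.09. That library had the highest fibroblast sum and the highest peritubular and smooth muscle sum of the 6. The part of those cells in the result was not tested.

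Bmpr1a and Acvr2b were the most abundant of the 10 genes per kilobase of exon, and the order of their means differed between the groups. With ethanol, Bmpr1a was at 35.3 ± 0.593 and Acvr2b at 33.4 ± 6.57 CPM per kilobase (SD, n = 3), and their ranges overlapped. That order of the means rested on ethanol replicate 2, where Acvr2b was at 25.9 and Bmpr1a at 34.6 CPM per kilobase. In ethanol replicates 1 and 3 Acvr2b was the higher, at 37.8 and 36.6 against 35.6 and 35.7. With EPZ5676, Acvr2b was at 39.8 ± 4.13 and Bmpr1a at 30.7 ± 3.24 CPM per kilobase, and the ranges did not overlap. The ratio of Acvr2b to Bmpr1a counts, which needs no length, was 0.846, 0.793 and 0.767 for EPZ5676 replicates 1, 2 and 3, against 0.656, 0.462 and 0.634 for the ethanol libraries in that order. This ratio was picked after its values were seen, is one of many that the 10 genes allow, and is given with no test.

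Id1 and Id3, both induced by BMP signalling, had similar profiles over the libraries, and their groups overlapped. Id1 was at 12.4, 15.5 and 6.09 CPM in EPZ5676 replicates 1, 2 and 3 and at 14.5, 14.1 and 11.5 CPM in ethanol replicates 1, 2 and 3. Id3 was at 15.5, 22.6 and 7.31 CPM with EPZ5676 and at 21.9, 15.6 and 14.4 CPM with ethanol. For both genes EPZ5676 replicate 2 was the highest library and EPZ5676 replicate 3 the lowest, so the EPZ5676 group enclosed the ethanol group.

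Id1 had a log2 fold change of -0.23 ± 0.30 (SE) and a 95% interval from -0.91 to 0.45. For Id3 the value was -0.17 ± 0.36, with an interval from -0.99 to 0.64. Both signs rested on EPZ5676 replicate 3: without it the log2 fold change was 0.0629 for Id1 and 0.15 for Id3, and without ethanol replicate 1 it was 0.0296 for Id3. Without EPZ5676 replicate 2 the values were -0.54 and -0.60. In pair 2 Id3 was 0.54 higher with EPZ5676 on the log2 scale, while in pairs 1 and 3 it was -0.49 and -0.98. The count ratio of Id1 to Id3 stayed between 0.665 and 0.903 over the 6 libraries. EPZ5676 replicate 3 had a fibroblast sum of 1582 CPM, inside the range of the other libraries, of which Fn1 gave 730 CPM. Single fibroblast markers went both ways there. Col1a1, at 152 CPM, was the lowest of the 6 libraries, and Fbn1, at 68.2 CPM, was the highest. EPZ5676 replicate 3 held 20676993 counts. The part of fibroblast markers or depth in its Id1 and Id3 levels was not tested.

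Id2 was scarce. Its counts in replicates 1, 2 and 3 were 34, 134 and 26 for EPZ5676 and 35, 39 and 22 for ethanol. These gave 1.74, 2.43 and 1.27 CPM against 1.78, 2.18 and 1.04 CPM. In each group replicate 2 was the highest and replicate 3 the lowest, and same-numbered libraries lay closer to each other than libraries of 1 group. The log2 fold change was 0.16 ± 0.35 (SE), with a 95% interval from -0.63 to 0.95. It was -0.14 without EPZ5676 replicate 2 and -0.10 without ethanol replicate 3.

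**Figure D3:**
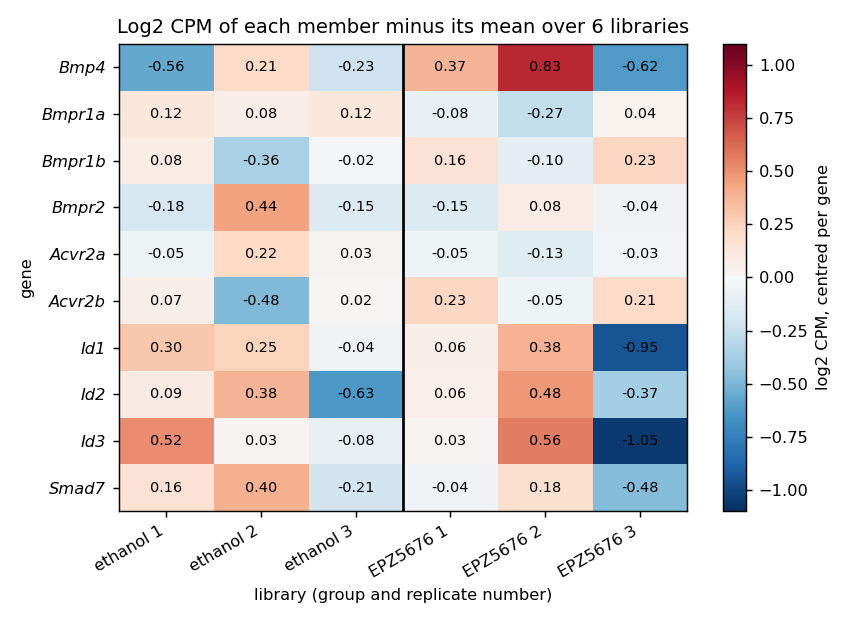
Log2 CPM of each gene (rows) in each library (columns; ethanol left and EPZ5676 right of the black line), minus the gene's mean over the 6 libraries; red is above and blue below that mean. Id1 and Id3 are lowest in EPZ5676 replicate 3 (-0.95 and -1.05), and Acvr2b is lowest in ethanol replicate 2 (-0.48).

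Smad7, the inhibitory SMAD, was at 26.8, 31.3 and 19.8 CPM in EPZ5676 replicates 1, 2 and 3 and at 30.8, 36.3 and 23.9 CPM in ethanol replicates 1, 2 and 3. The groups overlapped, but replicate 2 was the highest and replicate 3 the lowest in both, and within each number the EPZ5676 library was lower. The log2 differences were -0.20, -0.22 and -0.27 for pairs 1, 2 and 3. Without the block the log2 fold change was -0.22 ± 0.20 (SE) and an adjusted p of 0.838 (edgeR), and with the block it was -0.23 ± 0.08 with 0.193. The unblocked value was -0.0598 without EPZ5676 replicate 3 and -0.0717 without ethanol replicate 2, and it was -0.38 without EPZ5676 replicate 2 and -0.36 without ethanol replicate 3. Bmpr1a, Bmpr1b, Acvr2b and Smad7 were the 4 of 10 genes that differed in 1 direction in all 3 pairs, and 41.8% of all tested genes did so.

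Replicate 2 libraries stood to the same side of the other libraries in both groups for most of the 10 genes. Over all tested genes, the deviations of the 2 replicate 2 libraries from their group means correlated at 0.61, so this shift was not particular to the 10. The share of all genes with it was not counted. Bmp4, Bmpr2, Id1, Id2 and Smad7 were higher in replicate 2 than the mean log2 level of the other replicates in both groups, and Bmpr1a, Bmpr1b and Acvr2b were lower in both. For Acvr2b the gap was -0.27 with EPZ5676 and -0.52 with ethanol, and for Id2 it was 0.64 and 0.65. In size these gaps exceeded the log2 fold changes between the groups, 0.25 for Acvr2b and 0.16 for Id2. The ethanol gaps of Bmpr1a and Id1, -0.04 and 0.12, were smaller in size than their log2 fold changes, -0.20 and -0.23. The fibroblast sum and the peritubular and smooth muscle sum were highest in the 2 replicate 2 libraries as well, and the germ sum was lowest there. The part of these cell types in the gaps was not tested. In bulk samples, a different share of a cell type and a different amount of RNA per cell cannot be told apart.

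Levels per kilobase of exon placed the 10 genes in 4 tiers in the ethanol libraries. Below Bmpr1a and Acvr2b came Id1 at 11.5 ± 1.39 and Id3 at 9.65 ± 2.24 CPM per kilobase (SD, n = 3), whose ranges overlapped. Acvr2a at 6.86 ± 0.682, Smad7 at 6.72 ± 1.38 and Bmpr2 at 4.66 ± 1.20 CPM per kilobase followed, where Smad7 overlapped both of its neighbours. Bmpr1b at 1.06 ± 0.167, Id2 at 0.685 ± 0.237 and Bmp4 at 0.553 ± 0.159 CPM per kilobase were lowest, and each overlapped the next. The ranges of neighbouring tiers did not overlap, though the lowest Id3 value, 8.06, was next to the highest Smad7 value, 8.04. Lengths are the union of exons in GENCODE M21 and not those of the authors' annotation, so the order is approximate.

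The 3 genes whose centred log2 CPM over the 6 libraries lay nearest to that of Id1, among 10685 other genes at a mean level of 5 CPM or more, were Nrxn2, Gal3st3 and Hoxb6. Their root mean square differences from Id1 were 0.131, 0.133 and 0.133, and Id3 was the fifth nearest at 0.155. Nrxn2, which encodes a neurexin, was at 4.91, 6.50 and 3.12 CPM with EPZ5676 and 6.15, 6.27 and 4.51 CPM with ethanol. All of these profiles shared a low value in EPZ5676 replicate 3. The 3 genes were picked for nearness to Id1, whose lowest library this was, so their low value there follows from the choice.

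Other genes of the BMP, activin and TGF-beta pathway gave a like picture. Of 94 listed genes, 67 had enough counts to test, and 0 passed without the block or with it in the edgeR test, or in DESeq2 or limma-voom. Without the block 3 were higher and 1 lower at an unadjusted p under 0.05, against 7.41% of all genes, and with it 7 and 6, against 18.5%. The groups did not overlap for 6 of the 67, against 14.9% of all tested genes. The median log2 fold change was -0.00113, with 32 positive and 35 negative. By list, the median ran from -0.15 for activin, nodal and TGF-beta ligands to 0.19 for the other BMP and GDF ligands.

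**Figure D4:**
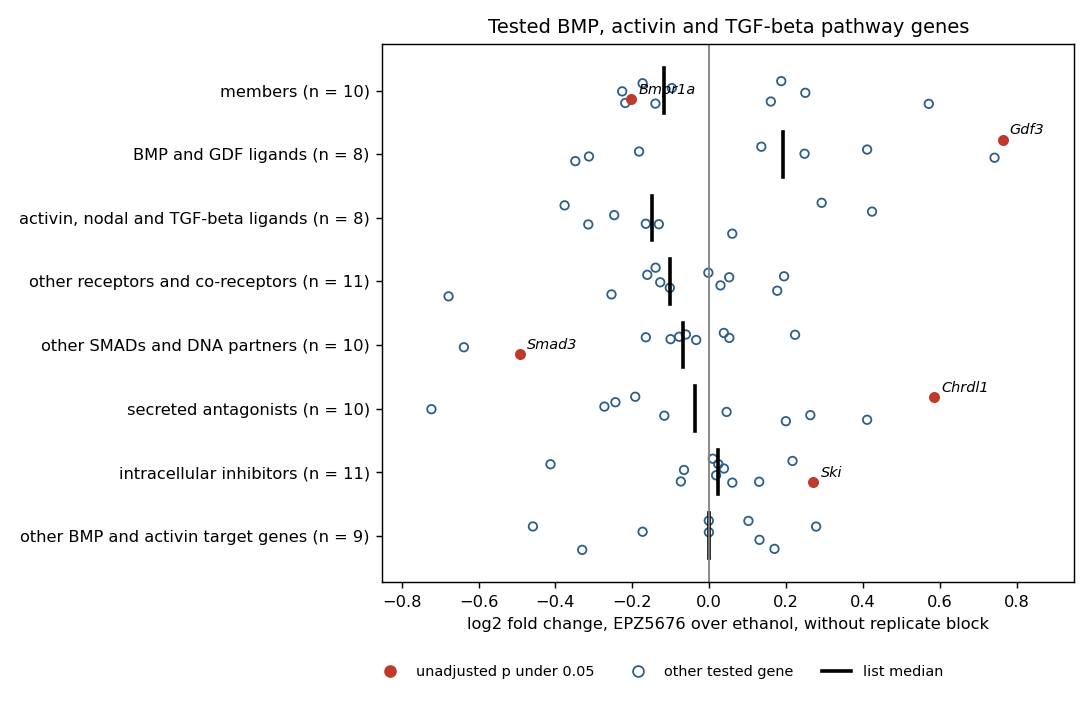
Log2 fold change of EPZ5676 over ethanol without the replicate block (x axis) for the 10 genes ("members") and 67 other tested pathway genes, by list (y axis, with the number tested; vertical scatter has no meaning). Filled red points have an unadjusted p under 0.05 and are named, open points do not, and black bars are list medians; none passed after adjustment.

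Among the other ligands, 8 of 17 BMP and GDF genes were tested. Gdf3, a ligand gene expressed in pluripotent cells, had a mean of 2.26 ± 0.316 CPM in the EPZ5676 libraries and 1.32 ± 0.325 CPM in the ethanol libraries (SD, n = 3), with an unadjusted p of 0.0189 and an adjusted p of 0.616 in the edgeR test. Bmp2, the closest relative of Bmp4, was at 1.89, 1.80 and 1.80 CPM with EPZ5676 and 0.763, 1.74 and 0.807 CPM with ethanol. The Bmp2 groups did not overlap, but ethanol replicate 2 nearly reached the EPZ5676 libraries, and the adjusted p was 0.674. Of the activin, nodal and TGF-beta ligands 8 of 15 were tested, and Inha and Tgfb3, with log2 fold changes of 0.42 ± 0.40 and -0.25 ± 0.28 (SE), had the smallest p. Inha levels were low, from 0.407 to 1.05 CPM.

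Of the other receptors and co-receptors, 11 of 15 were tested. Without the block 0 were at an unadjusted p under 0.05, against 7.41% of all genes. With the block 1 was, Tgfbr3, lower with EPZ5676, against 18.5%. Acvrl1, a type I receptor best known from endothelium, and Tgfbr3, the co-receptor betaglycan, had log2 fold changes of -0.68 ± 0.42 and -0.25 ± 0.16 (SE). Acvrl1 levels were low, from 0.256 to 1.23 CPM.

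Smad3, a transducer of activin and TGF-beta signals, came nearest to the threshold of the pathway genes. It was at 110, 88.3 and 94.5 CPM in EPZ5676 replicates 1, 2 and 3 and at 145, 108 and 158 CPM in ethanol replicates 1, 2 and 3. EPZ5676 replicate 1 lay just above ethanol replicate 2, and the other libraries were separate. The log2 fold change was -0.49 ± 0.15 (SE), and the edgeR test gave an adjusted p of 0.596 unblocked and 0.0514 blocked. Scaled by library totals only, the blocked comparison gave an adjusted p of 0.0421. Without pair 2 or pair 3 the blocked fit gave 0.000255 and 0.0108, and without pair 1 it called none of the pathway genes. Smad2, the partner that shares its role, had means of 260 ± 10.6 and 250.4 ± 9.83 CPM (SD, n = 3). Its log2 fold change was 0.05 ± 0.07. Foxh1, a DNA-binding partner of those SMADs, had one of -0.64 ± 0.31 and low levels, from 0.536 to 1.18 CPM.

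All 11 intracellular inhibitors were tested, and the related corepressor genes Ski and Skil had log2 fold changes of opposite sign. Ski averaged 391 ± 52.8 CPM in the EPZ5676 group against 324 ± 29.1 CPM in the ethanol group (SD, n = 3), and the adjusted p in the edgeR fit was 0.655. Skil was at 240.3 ± 24.8 and 320.2 ± 89.4 CPM, with an adjusted p of 0.670. Among secreted antagonists, 10 of 14 tested, Chrdl1, which encodes a chordin-like BMP binder, was at 12.1, 11.5 and 15.3 CPM with EPZ5676 and 9.31, 6.22 and 10.3 CPM with ethanol. Its groups did not overlap, as for 14.9% of all tested genes, and its adjusted p in edgeR was 0.625 unblocked and 0.0721 blocked. Twsg1, a BMP-binding protein gene, had a log2 fold change of -0.19 ± 0.09 (SE).

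Of the other target genes 9 of 12 were tested. Tbx3 had a log2 fold change of -0.33 ± 0.17 (SE). Id4, the Id gene linked to stem cell identity, was at 24.9, 20.9 and 16.2 CPM in EPZ5676 replicates 1, 2 and 3 and 22.2, 17.2 and 18.4 CPM in the ethanol libraries. Its lowest library was also EPZ5676 replicate 3, but its groups overlapped as well.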

How the data were processed

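RNA was measured in 6 libraries, 3 per group, made with a stranded poly(A) kit, per the labels' protocols. The authors deposited raw counts per gene symbol. The submitters' processing notes name STAR, featureCounts, edgeR, Bowtie and mm9, and no source used here gives their strand or annotation settings. No 2 libraries agreed within sampling noise. The filterByExpr function of edgeR 4.0.16 (R 4.3.3) kept 14855 of 24495 genes. They were scaled by TMM and tested by the 2-sided quasi-likelihood test of edgeR; adjusted p under 0.05 (Benjamini-Hochberg) was called. DESeq2 1.42.0 and limma 3.58.1 (voom) were alternatives. Fold changes are EPZ5676 over ethanol, and 95% intervals come from edgeR's SE and total degrees of freedom. Log2 CPM used a prior count of 2. The edgeR tests were checked on counts simulated with no replicate effect, so that check cannot decide between the blocked and unblocked fits.

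Same-numbered libraries' deviations from their group means correlated at 0.41, 0.61 and 0.34 for replicates 1, 2 and 3, above the bound of 0.1. From the labels' numbers and these correlations, the numbers were read as pairs in the blocked fit and the pair differences. The main fit had no block. Replicates 1 and 3 crossed between the groups gave 0.28 and 0.15, also above that bound. The data thus set replicate 2 apart more clearly than they tell replicates 1 and 3 from each other. The fits have 4 residual degrees of freedom without the block and 2 with it.

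The genes and lists were chosen with earlier results of these data known. Named beyond the 10 genes are pathway genes called in either fit, the 2 with the smallest p in each list and the 3 nearest profiles to Id1. Smad2, Id4 and the Acvr2b to Bmpr1a ratio were named after their values were seen. One pathway gene selected by smallest p is not reported here. The repeat family table was not used here.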

Additional observations from a re-analysis of the deposited data

How the results depend on the processing

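Of 180 log2 fold changes of the 10 genes under alternatives, 171 kept their sign and 3 were called. The sign changed for Bmpr2 (0.0696 with the replicate block without replicate 2, 0.0702 without both replicate 2 libraries, and -0.21 to 0.13 without single libraries), Id1 (-0.54 to 0.0629 without single libraries), Id2 (-0.14 to 0.40) and Id3 (-0.60 to 0.15, and 0.0426 with the block without replicate 3). Single libraries that turned a sign were ethanol replicate 2 for Bmpr2 (0.13), EPZ5676 replicate 3 for Id1 (0.0629) and Id3 (0.15), ethanol replicate 1 for Id3 (0.0296), and EPZ5676 replicate 2 (-0.14) and ethanol replicate 3 (-0.0951) for Id2. The 3 calls came from blocked edgeR fits with 1 pair left out and 1 residual degree of freedom: Id3 lower without pair 2 (-0.71), and Bmpr1a lower (-0.27) and Acvr2b higher (0.30) without pair 3. Called members thus numbered 1 of 10 without pair 2, where 795 of all 14822 tested genes were called. They numbered 2 of 10 without pair 3, where 761 of all 14912 were called, and 0 under every other alternative run. Other pathway genes called numbered 0 to 8, with 8 of 66 tested without pair 2 and 7 of 67 without pair 3. With library totals and the block 1 of 67 (Smad3) was called, against 193 of all 14855 genes.

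Over all genes, edgeR's quasi-likelihood test called 0 without the replicate block, and 1101 had an unadjusted p under 0.05. The blocked fit called 97 (48 higher, 49 lower), and with library totals it called 193 (76 higher, 117 lower). DESeq2 called 50 and limma-voom 0. Left-out libraries or pairs gave 0 to 795, with 795 without pair 2, 761 without pair 3, 0 without pair 1 and 10 without both replicate 2 libraries and no block. With all 6 libraries the block changed no call among the 10 genes. Without both replicate 2 libraries, Id3 was called with the block (adjusted p of 0.00596 in edgeR) and not without it (0.401). The cause of these shifts was not tested. Counts of 18 to 145 for Bmp4 and 22 to 134 for Id2 limit their precision.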
